A study of Homo sapiens with 8 samples.

Results

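Serine is made from a glycolytic intermediate, and its side carbon is passed to folate for the synthesis of nucleotides, formate and methyl groups. The 10 genes described here encode the enzymes of this route: PHGDH, PSAT1 and PSPH for serine synthesis, SHMT1 and SHMT2 for the transfer of the carbon to folate, MTHFD1 and ALDH1L1 for its conversions in the cytosol, and MTHFD2, MTHFD1L and ALDH1L2 for those in mitochondria. They were chosen as a list of gene symbols and found through the transcript names of the array probes. All 10 were measured, out of 19046 genes in the whole series, and 9 of them were well above background on all 8 arrays by the call of the scanner software. The exception was ALDH1L1, which was well above background on 2 arrays.

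The arrays measured RNA from A549 cells, an established line from a human lung carcinoma, in 2 series of 4 arrays. One series held cells given the vehicle and cells given 1.25, 5 or 20 µg/mL of EEDS, the ethanol extract of D. sophia seeds. The other held cells given the vehicle and cells given 3.75, 15 or 60 nM of helveticoside, a cardiac glycoside, and the study compared the extract with this compound. Each array carried RNA pooled from 3 cultures and there was 1 array for each condition, so no value has a replicate error. Exposure lasted 24 h by the methods given for the arrays. The labels give 48 h, in a paragraph on the viability assay, and which of these times applies to the arrays is not settled. The doses rose in steps of 4-fold in both series, and they are called the low, middle and top dose below. The agent, the array series and its vehicle control divide the arrays in the same way and cannot be told apart.

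Synthesis from glycolysis runs through PHGDH, PSAT1 and PSPH in that order. The folate cycle that receives the carbon exists in parallel in the cytosol and in mitochondria, and in proliferating cells the mitochondrial arm usually makes formate, which the cytosolic arm uses. Transcription of several of these genes is known to be raised by ATF4, the factor that cells produce when amino acids are short or the endoplasmic reticulum is stressed.

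Promoter sequence is shown for 6 of the 10 genes. They include genes highest at the middle dose (PHGDH, PSAT1, MTHFD2) and the gene that was higher at every next dose (MTHFD1L). Those that were lower at every next dose (SHMT1, MTHFD1) are shown beside them. RefSeq promoters of GRCh38.p14 were matched for 7 of the 10 genes, and the 6 are these without ALDH1L1, which was near the limit of the arrays. No promoter was matched for PSPH, SHMT2 and ALDH1L2, so PSPH and ALDH1L2, also highest at the middle dose, are not shown. Each line gives the 250 bases before the start site, read 5′ to 3′ on the strand of the gene. The windows are chr1:119711684-119711933 on the plus strand for PHGDH, chr9:78296875-78297124 on the plus strand for PSAT1 and chr2:74198365-74198614 on the plus strand for MTHFD2. They are chr6:150866236-150866485 on the plus strand for MTHFD1L, chr17:18363551-18363800 on the minus strand for SHMT1 and chr14:64388103-64388352 on the plus strand for MTHFD1. Capitals mark the letters of 3 motifs searched on both strands: TGATGNAAN, a form of the element bound by ATF4, the E-box CACGTG and the CCAAT box.
PHGDH: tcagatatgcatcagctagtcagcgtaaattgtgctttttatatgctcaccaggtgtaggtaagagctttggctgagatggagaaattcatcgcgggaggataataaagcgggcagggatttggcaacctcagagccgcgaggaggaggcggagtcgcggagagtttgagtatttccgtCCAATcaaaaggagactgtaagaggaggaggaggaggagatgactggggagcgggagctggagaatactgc
PSAT1: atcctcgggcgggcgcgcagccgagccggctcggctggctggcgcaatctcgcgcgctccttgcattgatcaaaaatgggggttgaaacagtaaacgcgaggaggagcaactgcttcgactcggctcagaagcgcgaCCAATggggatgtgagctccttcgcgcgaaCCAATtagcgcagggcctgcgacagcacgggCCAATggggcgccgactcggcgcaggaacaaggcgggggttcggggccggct
MTHFD2: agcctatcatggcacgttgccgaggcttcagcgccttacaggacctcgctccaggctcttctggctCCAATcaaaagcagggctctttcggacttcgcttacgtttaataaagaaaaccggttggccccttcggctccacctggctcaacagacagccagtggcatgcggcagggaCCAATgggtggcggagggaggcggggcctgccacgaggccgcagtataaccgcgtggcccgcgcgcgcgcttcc
MTHFD1L: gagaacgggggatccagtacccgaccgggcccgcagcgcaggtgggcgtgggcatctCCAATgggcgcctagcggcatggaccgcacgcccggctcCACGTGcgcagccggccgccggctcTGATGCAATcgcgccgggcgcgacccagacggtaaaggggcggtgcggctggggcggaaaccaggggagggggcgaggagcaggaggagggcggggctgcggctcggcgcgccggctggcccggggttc
SHMT1: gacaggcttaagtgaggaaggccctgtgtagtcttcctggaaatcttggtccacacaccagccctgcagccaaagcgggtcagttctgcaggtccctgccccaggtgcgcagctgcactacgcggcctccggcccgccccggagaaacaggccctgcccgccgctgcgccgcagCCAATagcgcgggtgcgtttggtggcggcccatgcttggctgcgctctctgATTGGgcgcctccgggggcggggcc
MTHFD1: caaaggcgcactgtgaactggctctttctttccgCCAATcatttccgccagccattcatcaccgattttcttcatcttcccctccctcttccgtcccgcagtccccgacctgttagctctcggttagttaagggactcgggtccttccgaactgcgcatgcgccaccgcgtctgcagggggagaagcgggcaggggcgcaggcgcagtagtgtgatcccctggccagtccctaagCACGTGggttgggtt

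The CCAAT box was in all 6 printed windows and in no ALDH1L1 window, against 32.0% of 35116 promoters of this length. PHGDH held it once, at 71 bases before the start counted from the first base of the match, PSAT1 at 113, 83 and 52 bases, and MTHFD2 at 184 and 74 bases. MTHFD1L held it at 193 bases and MTHFD1 at 216 bases, and SHMT1 at 76 bases and, on the other strand, at 25 bases. The E-box, present in 6.34% of promoters, was in the windows of MTHFD1L at 154 bases and of MTHFD1 at 15 bases. TGATGNAAN was in 3.13% of promoters and was found as TGATGCAAT at 129 bases before the MTHFD1L start shown. The same site lies 90 bases before another of the 4 listed starts of this gene. The windows of the remaining listed starts held neither this element nor the E-box, and that of the last held none of the 3 motifs. Neither of the 2 listed ALDH1L1 windows, which are not printed, held any of the 3 motifs. These matches describe the letters of the windows only.

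Across the arrays, the 43118 probe spots had median signals between 182 and 278 and median local backgrounds between 27 and 34. The software called 54.5% to 64.9% of probes well above background and none saturated. The A549 markers KRT8, KRT18, KRT19, EPCAM, AKR1B10, AKR1C1 and NQO1 were well above background on all arrays. Of 12 immune, endothelial, fibroblast and erythroid markers, 5 were well above background on all arrays (PTPRC, CD14, CDH5, COL1A1 and ALAS2) and 4 on none, and their part in the results was not tested. The only comparison without a drug is that of the vehicle arrays. The log2 difference between them (helveticoside vehicle minus EEDS vehicle) had an SD of 0.65 over all genes and put 10.4% of genes past 2-fold, and for the 10 genes it ran from -0.68 (SHMT1) to 0.64 (ALDH1L2). This spread includes any difference between the series, and it is the scale on which a ratio from single arrays can be read.

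**Figure D1:**
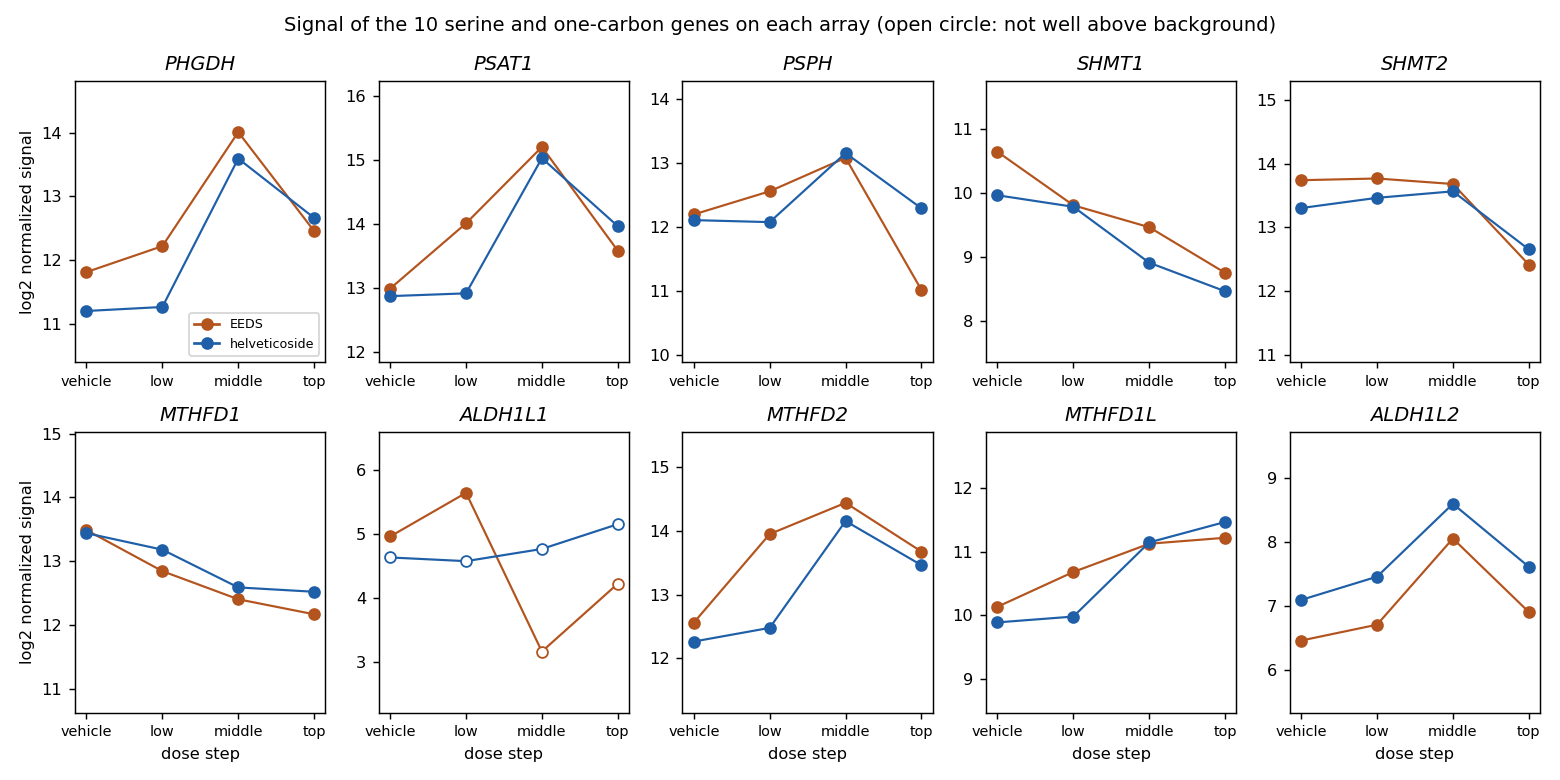
Log2 signal (vertical axis) of each of the 10 genes on the 8 arrays, by dose (horizontal axis), with EEDS and helveticoside as separate lines and 1 array per point. PHGDH, PSAT1, MTHFD2 and ALDH1L2 are highest at the middle dose of both agents, MTHFD1L is higher at every next dose and SHMT1 and MTHFD1 are lower at every next dose.

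Serine synthesis genes were highest at the middle dose of both agents. PHGDH (phosphoglycerate dehydrogenase), which catalyses the committed step, had a log2 signal of 11.82, 12.22, 14.01 and 12.46 on the EEDS vehicle, low, middle and top arrays. On the helveticoside arrays it had 11.21, 11.27, 13.59 and 12.66. The middle dose stood 4.57-fold above the vehicle for EEDS and 5.23-fold for helveticoside, and the top dose 1.56-fold and 2.75-fold. At the middle dose, 0.898% of all genes had a higher ratio with EEDS and 0.772% with helveticoside. In bulk RNA such as this, a change in every cell and a change in only some of the cells cannot be told apart.

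PSAT1 (phosphoserine aminotransferase), which catalyses the next step, had a log2 signal of 12.99, 14.01, 15.20 and 13.58 in the EEDS series. In the helveticoside series it had 12.87, 12.91, 15.03 and 13.96. The middle dose was 4.65-fold and 4.47-fold above the vehicle, close to the values of PHGDH. At the low dose PSAT1 was 2.03-fold higher with EEDS and 1.03-fold with helveticoside.

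PSPH (phosphoserine phosphatase), which releases free serine, had a log2 signal of 12.20, 12.56, 13.09 and 11.02 in the EEDS series. In the helveticoside series it had 12.11, 12.08, 13.16 and 12.30. The middle dose was again the highest, at 1.85-fold and 2.07-fold, and smaller than for the other genes of synthesis. At the top dose it was 2.27-fold lower than the vehicle with EEDS and 1.14-fold higher with helveticoside.

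The serine hydroxymethyltransferases of the cytosol and of mitochondria differed in their patterns. SHMT1, the cytosolic enzyme, had a log2 signal of 10.65, 9.81, 9.47 and 8.75 in the EEDS series. In the helveticoside series it had 9.97, 9.79, 8.91 and 8.46. The signal was lower at every next dose of both agents, ending 3.72-fold below the vehicle with EEDS and 2.83-fold below it with helveticoside. The helveticoside vehicle was itself 0.68 lower on the log2 scale than the EEDS vehicle, the widest gap between vehicles among the 10 genes.

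SHMT2, the mitochondrial enzyme and the main source of folate-bound carbon in many cancer cells, had a log2 signal of 13.74, 13.77, 13.68 and 12.42 in the EEDS series. In the helveticoside series it had 13.30, 13.46, 13.56 and 12.66. The low and middle doses lay within 0.26 of the vehicle on the log2 scale, and the top dose was 2.50-fold lower with EEDS and 1.57-fold lower with helveticoside.

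In the cytosol, MTHFD1, the trifunctional enzyme that joins formate to folate and interconverts the folate-bound carbon, was lower at every next dose. Its log2 signal was 13.49, 12.85, 12.41 and 12.17 in the EEDS series and 13.44, 13.18, 12.59 and 12.52 in the helveticoside series. The vehicles differed by -0.05, and the top dose was 2.49-fold lower with EEDS and 1.89-fold lower with helveticoside. MTHFD1 was spotted 10 times on each array, and the SD between these spots was 0.02 to 0.06 on the log2 scale, a measure of the error inside an array and not between cultures.

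ALDH1L1, the cytosolic formyltetrahydrofolate dehydrogenase that removes carbon from the folate pool, was near the limit of the arrays. Its log2 signal was 4.96, 5.65, 3.16 and 4.22 in the EEDS series and 4.63, 4.58, 4.77 and 5.16 in the helveticoside series. Only the EEDS vehicle and low dose arrays were well above background. Set against the lowest signal well above background, or its own signal where higher, ALDH1L1 was at least 1.15-fold lower at the middle and at least 1.11-fold lower at the top dose of EEDS than on the vehicle. No fold is given for helveticoside.

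In mitochondria, all 3 folate genes were above the vehicle at every dose of both agents, in part by little. At the low dose of helveticoside the log2 ratios were 0.21 for MTHFD2, 0.09 for MTHFD1L and 0.36 for ALDH1L2. These lie inside the SD of 0.65 between the vehicles over all genes. So do the ALDH1L2 ratios at all but the middle doses and that of MTHFD1L at the low dose of EEDS. MTHFD2, the dehydrogenase and cyclohydrolase of proliferating cells, had a log2 signal of 12.56, 13.95, 14.44 and 13.67 in the EEDS series and 12.26, 12.48, 14.15 and 13.46 in the helveticoside series. The low, middle and top doses were 2.61-fold, 3.67-fold and 2.16-fold above the vehicle with EEDS. With helveticoside they were 1.16-fold, 3.70-fold and 2.29-fold above it, so the ratios of the agents were close at the middle and top doses and apart at the low dose. MTHFD2 was also spotted 10 times, with an SD between spots of 0.09 to 0.12. On each array of the middle and top doses the lowest spot (13.20 or higher) lay above the highest spot of both vehicles (12.69 or lower).

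**Figure D2:**
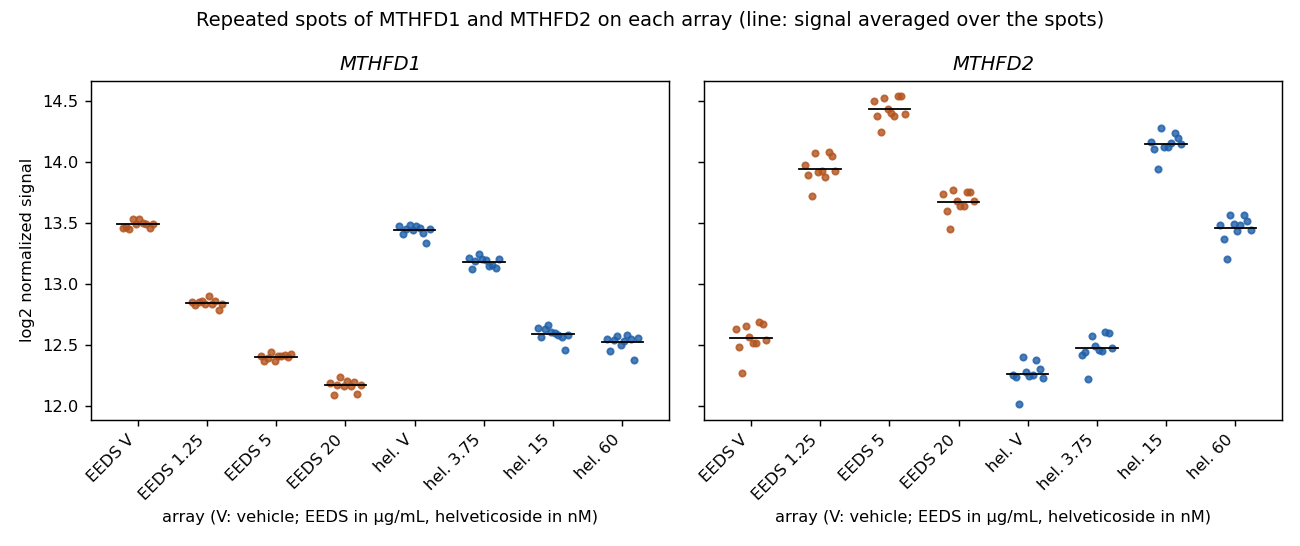
Log2 signal of the 10 spots of MTHFD1 and of MTHFD2 on each array, with 1 point per spot. The spots of an array lie close together, with an SD between spots of at most 0.06 for MTHFD1 and 0.12 for MTHFD2, and they are repeats within an array and not replicates of a dose.

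MTHFD1L, the mitochondrial enzyme that releases formate, did not turn down at the top dose. Its log2 signal was 10.14, 10.68, 11.12 and 11.22 in the EEDS series and 9.89, 9.98, 11.14 and 11.46 in the helveticoside series. It was higher at every next dose of both agents and ended 2.11-fold above the vehicle with EEDS and 2.97-fold with helveticoside. The other 2 probes of this gene had log2 ratios of 0.90 and 0.72 at the top dose of EEDS and of 1.09 and 1.55 at that of helveticoside, against 1.08 and 1.57 for the probe used. One of them was slightly lower at the top dose than at the middle dose of both agents, so the steady rise does not hold for every probe.

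ALDH1L2, the mitochondrial counterpart of ALDH1L1, had a log2 signal of 6.46, 6.70, 8.05 and 6.90 in the EEDS series and 7.09, 7.46, 8.60 and 7.61 in the helveticoside series. The middle dose was 3.03-fold and 2.84-fold above the vehicle, and the top dose 1.36-fold and 1.43-fold. Each helveticoside array stood above the EEDS array of the same step, the vehicle by 0.64, while the ratios to the vehicle were nearly the same for both agents. The second probe of SHMT1, for comparison with its first, had top-dose log2 ratios of -1.64 and -1.60 against -1.89 and -1.50.

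**Figure D3:**
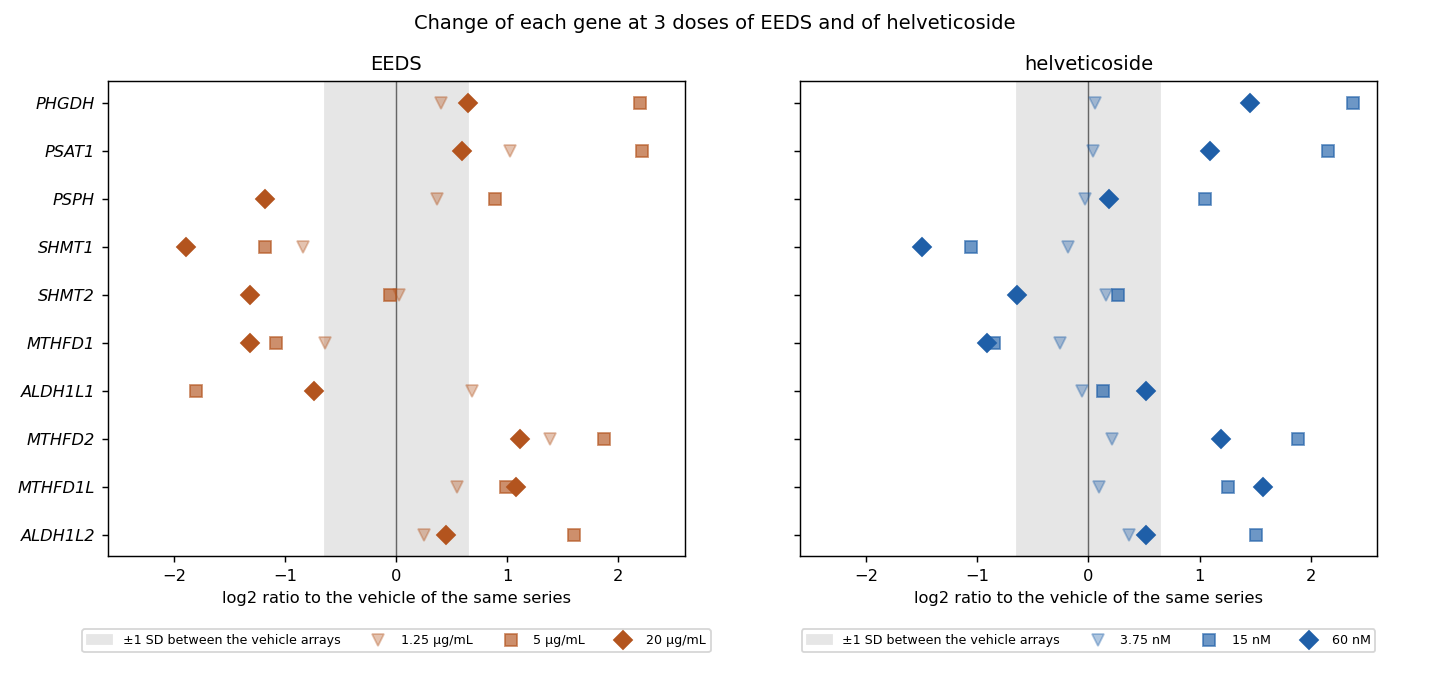
Log2 ratio of each dose to the vehicle of its own series (horizontal axis) for the 10 genes, with EEDS and helveticoside in separate panels, 1 array per point and a grey band of 1 SD of the difference between the vehicle arrays over all genes. The middle doses of PHGDH, PSAT1, MTHFD2 and ALDH1L2 lie to the right of the band in both panels and the middle and top doses of SHMT1 and MTHFD1 to the left of it.

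Counted by size, 6 of the 10 genes were past 2-fold at the middle dose of EEDS and 6 at its top dose, and 7 and 5 at those of helveticoside, leaving aside ALDH1L1, which was not well above background on these arrays. The shares of all genes given beside the counts have no such exclusion. They are over 19046 genes, of which 11498 were well above background on all arrays. At the middle dose of EEDS 4 exceeded the vehicle by more than 2-fold (PHGDH, PSAT1, MTHFD2 and ALDH1L2), where 7.33% of all genes were, and 2 were more than 2-fold lower (SHMT1 and MTHFD1), where 8.47% were. At that of helveticoside 6 were higher (PHGDH, PSAT1, PSPH, MTHFD2, MTHFD1L and ALDH1L2), where 7.08% of all genes were, and SHMT1 alone was lower, where 8.06% were.

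At the low dose 2 genes were more than 2-fold higher with EEDS (PSAT1 and MTHFD2, against 4.22% of all genes) and none with helveticoside (3.38%). None was more than 2-fold lower with either agent, against 3.66% and 4.31% of all genes. The share of all genes at the low dose of EEDS depends on the scaling, with 803 higher and 697 lower here and 741 and 1188 under 75th percentile scaling. At the top dose of EEDS 2 were higher (MTHFD2 and MTHFD1L, against 13.3%) and 4 lower (PSPH, SHMT1, SHMT2 and MTHFD1, against 14.5%). At that of helveticoside 4 were higher (PHGDH, PSAT1, MTHFD2 and MTHFD1L, against 10.8%) and SHMT1 was lower (12.8%).

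Of the 10 genes, 4 were both highest at the middle dose and more than 2-fold above the vehicle there in both series (PHGDH, PSAT1, MTHFD2 and ALDH1L2), a pattern held by 0.646% of all genes, or 123. The middle dose exceeded the top dose in both series for 8 genes, against 33.2% of all genes, the others being MTHFD1L and ALDH1L1. SHMT1 and MTHFD1 were lower at every next dose in both series, against 6.60% of all genes, and MTHFD1L was higher at every next dose, against 6.97%. These patterns were picked after the values were seen and are descriptions.

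A straight line over the dose steps was fitted in each series with limma over all 8 arrays, which share 1 estimate of the spread, and p-values were adjusted over all genes with the Benjamini-Hochberg procedure. With EEDS, 2 of the 10 genes fell with dose (SHMT1 and MTHFD1), where 7.85% of all genes fell, and none rose, where 7.27% did. With helveticoside, the same 2 genes fell, where 5.80% of all genes did, and MTHFD1L rose, where 5.48% did. SHMT1 fell by 0.60 per step on the log2 scale with EEDS (SE 0.08, adjusted p = 0.0156) and by 0.54 with helveticoside (SE 0.08, adjusted p = 0.0227). MTHFD1 fell by 0.44 per step (SE 0.07, adjusted p = 0.0190) and by 0.33 (SE 0.07, adjusted p = 0.0368). MTHFD1L rose by 0.59 per step with helveticoside (SE 0.10, adjusted p = 0.0295), and its EEDS slope was 0.37 (SE 0.10, adjusted p = 0.0681).

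These trend calls rest on few arrays. Without the vehicle or the top array of EEDS, neither EEDS fall passed the threshold, with slopes of -0.53 and -0.59 for SHMT1 and of -0.34 and -0.54 for MTHFD1, and the limma fit then called 0 of all genes along the EEDS doses. Without the vehicle, middle or top array of helveticoside, none of the 3 helveticoside calls passed, with slopes of -0.66, -0.52 and -0.53 for SHMT1 and of 0.74, 0.55 and 0.63 for MTHFD1L. Over all genes that fit called 239 rising and 230 falling without the vehicle and 0 without the middle or the top array. Leaving out the middle array of EEDS ended all 3 helveticoside calls as well, its low array those of MTHFD1 and MTHFD1L, and the low array of helveticoside that of MTHFD1, with no slope moving beyond -0.54 (SHMT1), 0.59 (MTHFD1L) and -0.32 (MTHFD1). The helveticoside slope of MTHFD1 lay between -0.42 and -0.31 with any 1 array left out.

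The slopes of the 4 genes with a maximum at the middle dose had wide intervals that included 0. The EEDS slope of PHGDH was 0.37 per step with a 95% interval of -0.56 to 1.31, and that of PSAT1 was 0.30 with an interval of -0.64 to 1.24. With helveticoside the slopes were 0.67 for PHGDH (-0.27 to 1.60), 0.54 for PSAT1 (-0.40 to 1.48), 0.53 for MTHFD2 (-0.17 to 1.22) and 0.27 for ALDH1L2 (-0.42 to 0.96). The limma test of the difference between the slopes of the agents called none of the 10 genes and 0.00% of all genes (0 genes), while 278 genes had a higher and 247 a lower helveticoside slope at an unadjusted p under 0.05. For SHMT1 the difference (helveticoside minus EEDS) was 0.06 per step with a 95% interval of -0.22 to 0.34, for MTHFD1 0.11 (-0.13 to 0.34) and for MTHFD1L 0.22 (-0.14 to 0.58). For PHGDH it was 0.30 (-1.02 to 1.62), for PSPH 0.47 (-0.60 to 1.54) and for ALDH1L2 0.00 (-0.97 to 0.97), so differences of these sizes per step are not shown to be absent. The doses of an extract in µg/mL and of a compound in nM are not matched, and a step is a 4-fold rise in both.

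To test the middle dose, a second limma fit took the dose step as a factor shared by both series with the series as a block. It was chosen after the data were seen, and its error is the disagreement between the agents, which stand in for replicates with 3 residual degrees of freedom. The paired doses are different exposures, so this error is not a replicate error and the p-values do not measure one. Against the inhibitory concentrations for growth that the study gives, the middle dose was above for EEDS and below for helveticoside. Both top doses were above. At the middle step 5 of the 10 genes rose over the vehicle (10.7% of all genes did) and 2 fell (11.4%). PHGDH rose by 2.29 on the log2 scale (SE 0.28, adjusted p = 0.0152), PSAT1 by 2.19 (SE 0.36, adjusted p = 0.0218), MTHFD2 by 1.88 (SE 0.35, adjusted p = 0.0275), ALDH1L2 by 1.55 (SE 0.11, adjusted p = 0.0135) and MTHFD1L by 1.12 (SE 0.24, adjusted p = 0.0382). SHMT1 fell by 1.12 (SE 0.18, adjusted p = 0.0219) and MTHFD1 fell by 0.97 (SE 0.12, adjusted p = 0.0153). PSPH stood at 0.97 (SE 0.44, adjusted p = 0.202), SHMT2 at 0.10 (SE 0.18, adjusted p = 0.784) and ALDH1L1 at -0.83 (SE 0.71, adjusted p = 0.485).

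Without the vehicle or the middle array of either series, none of these 7 calls passed the threshold and at most 1 gene rose and 10 fell among all genes. PSPH, at 0.97 in both cases, passed without the top array of either series. The sizes themselves moved little, from 2.18 to 2.40 for PHGDH, from 2.10 to 2.28 for PSAT1, from 1.69 to 2.07 for MTHFD2 and from 1.47 to 1.63 for ALDH1L2 with any 1 array left out.

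At the top step 3 of the 10 genes rose over the vehicle (18.4% of all genes did) and 3 fell (19.8%), shares near those of all genes for both directions. MTHFD1L rose by 1.33 (SE 0.24, adjusted p = 0.0144), PHGDH by 1.05 (SE 0.28, adjusted p = 0.0445) and ALDH1L2 by 0.48 (SE 0.11, adjusted p = 0.0294). SHMT1 fell by 1.70 (SE 0.18, adjusted p = 0.00372), MTHFD1 fell by 1.12 (SE 0.12, adjusted p = 0.00375) and SHMT2 fell by 0.98 (SE 0.18, adjusted p = 0.0136). SHMT1 and MTHFD1 passed the threshold with any 1 array left out, from -1.89 to -1.50 and from -1.29 to -0.95, and SHMT2 with any but the EEDS vehicle, without which it was -0.80. MTHFD1L passed without any 1 array except either vehicle (1.38 and 1.28) or the top array of helveticoside (1.05). PHGDH lost its call without either vehicle, either middle array or the top array of helveticoside (0.62 to 1.16), and without trend and robust estimation (adjusted p = 0.0511). Of the arrays left out in turn, only the low array of EEDS left ALDH1L2 its call. It also lost the call under 75th percentile scaling (0.12, adjusted p = 0.667), with quantile normalization within each series (0.48, adjusted p = 0.0576) and with the authors' processed values (0.39, adjusted p = 0.306). MTHFD2 (1.15, adjusted p = 0.0604), PSAT1 (0.84, adjusted p = 0.140) and PSPH (-0.50, adjusted p = 0.453) did not pass. MTHFD2 and PSAT1 passed at the same sizes without the low array of either series, and PSPH, at -1.22, without the top array of helveticoside.

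From the middle to the top step 2 of the 10 genes fell, ALDH1L2 by 1.07 (SE 0.11, adjusted p = 0.0274) and SHMT2 by 1.09 (SE 0.18, adjusted p = 0.0361), where 5.36% of all genes fell, and none rose, where 4.65% did. PHGDH (-1.24, adjusted p = 0.0654), PSAT1 (-1.34, adjusted p = 0.0868), PSPH (-1.47, adjusted p = 0.109) and MTHFD2 (-0.73, adjusted p = 0.263) did not pass, although their top-dose signal was below the middle-dose signal in both series. Both calls were lost with any 1 array left out, from -1.14 to -0.99 for ALDH1L2 and from -1.35 to -0.82 for SHMT2. Over all genes the limma fit then called 1 falling gene without the top array of EEDS and 0 without any other, so the loss was not particular to these genes. ALDH1L2 also lost its call with the authors' processed values (-1.03, adjusted p = 0.0613). With the signal as scanned, PHGDH, PSAT1 and PSPH also passed the threshold.

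**Figure D4:**
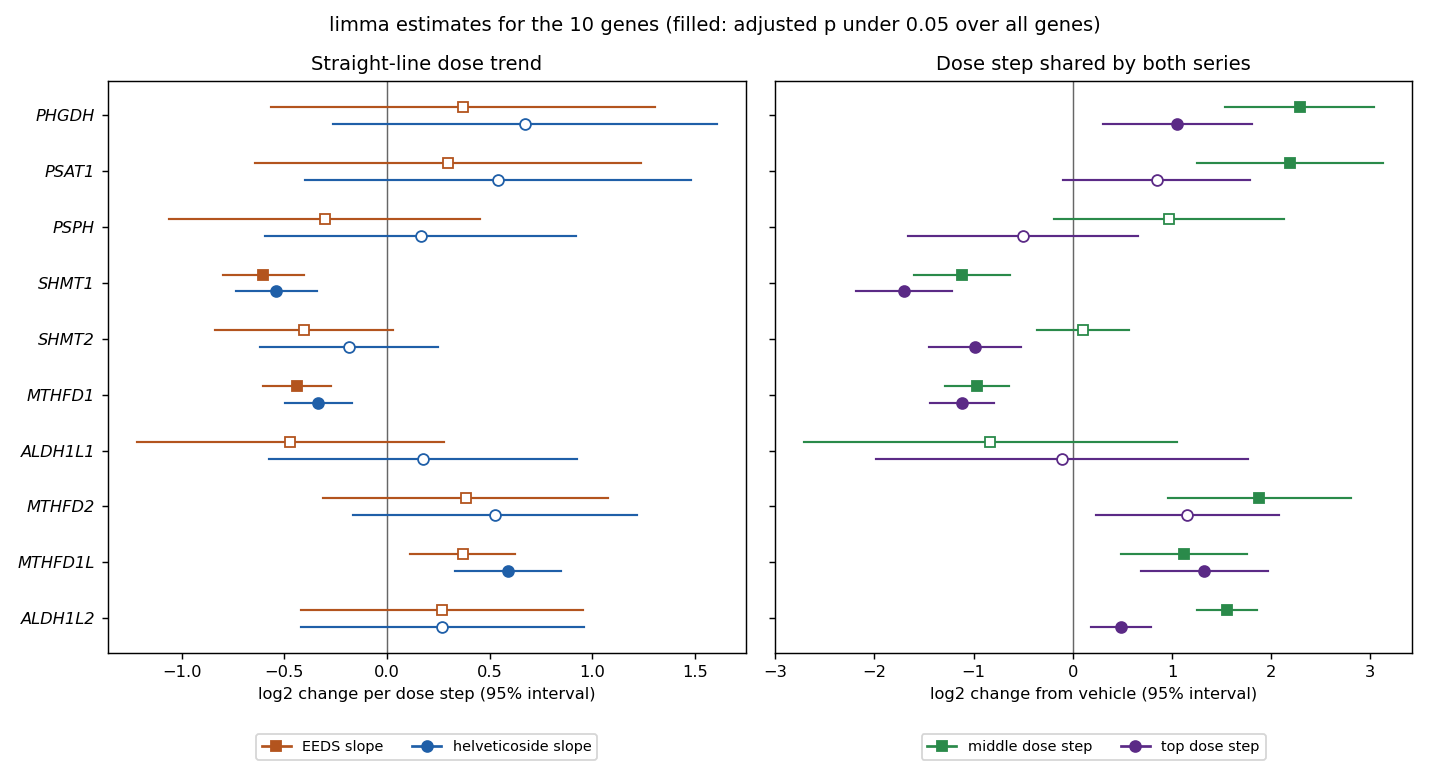
Left, limma slopes per dose step on the log2 scale for EEDS and for helveticoside, and right, limma changes from the vehicle at the middle and top steps shared by both series, with 95% intervals and filled points where the adjusted p over all genes is under 0.05. SHMT1 and MTHFD1 are filled in every position, and PHGDH, PSAT1, MTHFD2 and ALDH1L2 have open slopes and filled middle steps.

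A search of the 11498 genes that passed the background call on each array found the genes most like MTHFD1L, the gene with the largest mean top-dose ratio of the 10, over the 6 ratios to the vehicle. They were DHRS3 (Pearson r = 0.996), CD55 (0.994) and SUGP2 (0.991). Those most like SHMT1, with the lowest mean top-dose ratio, were SEPHS2 (0.996), SFXN4 (0.996) and SNORD116-19 (0.995), the last one of a set of nearly identical small nucleolar RNA copies whose signals a probe may not separate. The 6 ratios share 2 vehicle arrays, and what values of r such a search gives for other genes was not tested.

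The surrounding pathways are described by 7 lists, written with earlier results of these data known. Of the 13 genes that use or cleave serine and glycine, 2 rose and 1 fell along the EEDS doses (7.27% and 7.85% of all genes did) and 2 rose and 2 fell along the helveticoside doses (5.48% and 5.80%). At the shared middle step 3 rose (10.7% of all genes did) and 1 fell (11.4%). SPTLC1, a subunit of the enzyme that starts sphingolipids from serine, rose by 0.35 per step with EEDS (adjusted p = 0.0167) and 0.33 with helveticoside (adjusted p = 0.0230), and SFXN1, the mitochondrial serine carrier, rose by 0.42 (adjusted p = 0.0337) and 0.39 (adjusted p = 0.0470). SDSL, related to serine dehydratase, fell by 0.87 per step with each agent (adjusted p = 0.0261 and 0.0306). SRR, the serine racemase, is counted among those that fell with helveticoside, but it was not well above background at any helveticoside dose, so no slope is given and it was at least 2.41-fold lower at the top. SDS, the serine dehydratase, had log2 ratios of 1.72, 0.19 and -2.30 at the EEDS doses and 1.01, 0.71 and -1.65 at the helveticoside doses. CBS (cystathionine beta-synthase, which joins serine to homocysteine), named after its values were seen, was highest at the middle dose with log2 ratios of 2.26 and 2.25.

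Of 13 other genes of the folate cycle and of folate transport, 1 fell along the EEDS doses and none rose (7.85% and 7.27% of all genes did), and 1 rose and 1 fell along the helveticoside doses (5.48% and 5.80%), counts near these shares. SLC19A1, the reduced folate carrier of the cell membrane, fell by 0.47 per step with EEDS (adjusted p = 0.0216) and by 0.45 with helveticoside (adjusted p = 0.0286). SLC25A32, the folate carrier of mitochondria, rose by 0.59 per step with helveticoside (adjusted p = 0.0486), and its EEDS slope was 0.50 (adjusted p = 0.0618). MTHFD2L, the paralogue of MTHFD2, had 1.24 at the top dose of EEDS and was at least 1.31-fold higher at that of helveticoside. At the shared middle step 3 of the 13 rose, where 10.7% of all genes did, among them SLC25A32 (1.15, adjusted p = 0.0267) and MTHFD2L (adjusted p = 0.0470). Another 3 fell there, where 11.4% did, among them SLC19A1 by 0.83 (adjusted p = 0.0307) and MTHFS by 0.30 (adjusted p = 0.0368). At the shared top step 3 rose (18.4% of all genes did) and 4 fell (19.8%).

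Of 3 genes of purine synthesis, 2 fell along the doses of both agents (7.85% and 5.80% of all genes did). ATIC, which takes up formyl folate, fell by 0.42 per step with EEDS (adjusted p = 0.0132) and by 0.34 with helveticoside (adjusted p = 0.0185), PAICS fell by 0.22 (adjusted p = 0.0488) and 0.27 (adjusted p = 0.0396), and GART did not pass in either series. At the shared top step GART rose by 0.63 (adjusted p = 0.00933), where 18.4% of all genes rose, while ATIC and PAICS fell. Of 10 genes of the methionine cycle, MTR, the synthase that passes the methyl group of folate to homocysteine, fell by 0.72 (adjusted p = 0.0195) and 0.61 per step (adjusted p = 0.0307), and none rose along the doses. Over all genes 7.85% and 5.80% fell and 7.27% and 5.48% rose, so these counts are near the shares of all genes. At the top step MTR and AHCYL1 fell, where 19.8% of all genes did, and MAT2B rose by 0.30 (adjusted p = 0.0469), where 18.4% did. The falling count is near the share of all genes and the rising count is below it. MAT2A, which makes S-adenosylmethionine, had log2 ratios of 0.36, -0.30 and -1.61 at the EEDS doses and -1.41, -0.16 and -1.61 at the helveticoside doses. The limma fits did not call it along the doses (adjusted p = 0.240 and 0.491) or at the top step (adjusted p = 0.0740). None of the 5 genes of the glycolytic branch point (GAPDH, PGK1, PGAM1, ENO1 and PKM) was called along the doses of either agent. The shares of all genes along the doses are those given for the methionine cycle. In the fit of shared steps PGK1 fell by 0.51 at the middle step (adjusted p = 0.0254), where 11.4% of all genes fell. At the top step 3 of the 5 fell, where 19.8% of all genes did: PGK1 fell by 0.48 (adjusted p = 0.0155), ENO1 fell by 0.31 (adjusted p = 0.0200) and GAPDH fell by 0.17 (adjusted p = 0.0476).

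In the ATF4 list, 12 of 13 genes were measured, 6 rose at the shared middle step (10.7% of all genes did) and none fell (11.4%), and 8 rose (18.4%) and 2 fell (19.8%) at the top step. Those that fell were SLC7A11, by 1.02 (adjusted p = 0.0279), and ATF5, by 0.93 (adjusted p = 0.0492). Both lay below the vehicle at every dose of both agents, each with a smallest log2 ratio of -0.03. ATF4 itself had log2 ratios of 0.63, 0.65 and 1.04 at the EEDS doses and -0.09, 0.58 and 0.49 at the helveticoside doses, with no call along either series (adjusted p = 0.0601 and 0.156). In the fit of shared steps it stood at 0.61 at the middle step (adjusted p = 0.106) and rose by 0.77 at the top step (adjusted p = 0.0432). ASNS, the asparagine synthetase and a known ATF4 target, had 1.37, 3.66 and 2.76 with EEDS and 0.19, 3.29 and 3.05 with helveticoside, the same order of doses as PHGDH. VLDLR (1.96 and 2.07 at the middle doses) and NUPR1 (3.63 and 3.48) were also highest at the middle dose in both series. ATF3 and DDIT3, which encode stress-induced transcription factors, were highest at the top dose, at 7.02 and 4.79 with EEDS and 5.40 and 3.02 with helveticoside. Including TRIB3, CHAC1 and STC2, named after their values were seen, 6 of the 12 were highest at the middle dose and more than 2-fold above the vehicle there in both series, the pattern of 4 of the 10 serine and folate genes and of 0.646% of all genes. STC2, also counted among the genes that rose at both shared steps, was well above background on only 5 arrays. Its vehicle signals were 3.57 and 3.36, so the size of its ratios is uncertain. Among other known regulators of serine synthesis, EHMT2, a histone methyltransferase, fell by 1.04 per step with EEDS (adjusted p = 0.0145) and by 0.78 with helveticoside (adjusted p = 0.0272), MYC and KEAP1 were not called along the doses, MYC rose by 0.74 at the shared top step (adjusted p = 0.0107), and NFE2L2 was well above background on no array.

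**Figure D5:**
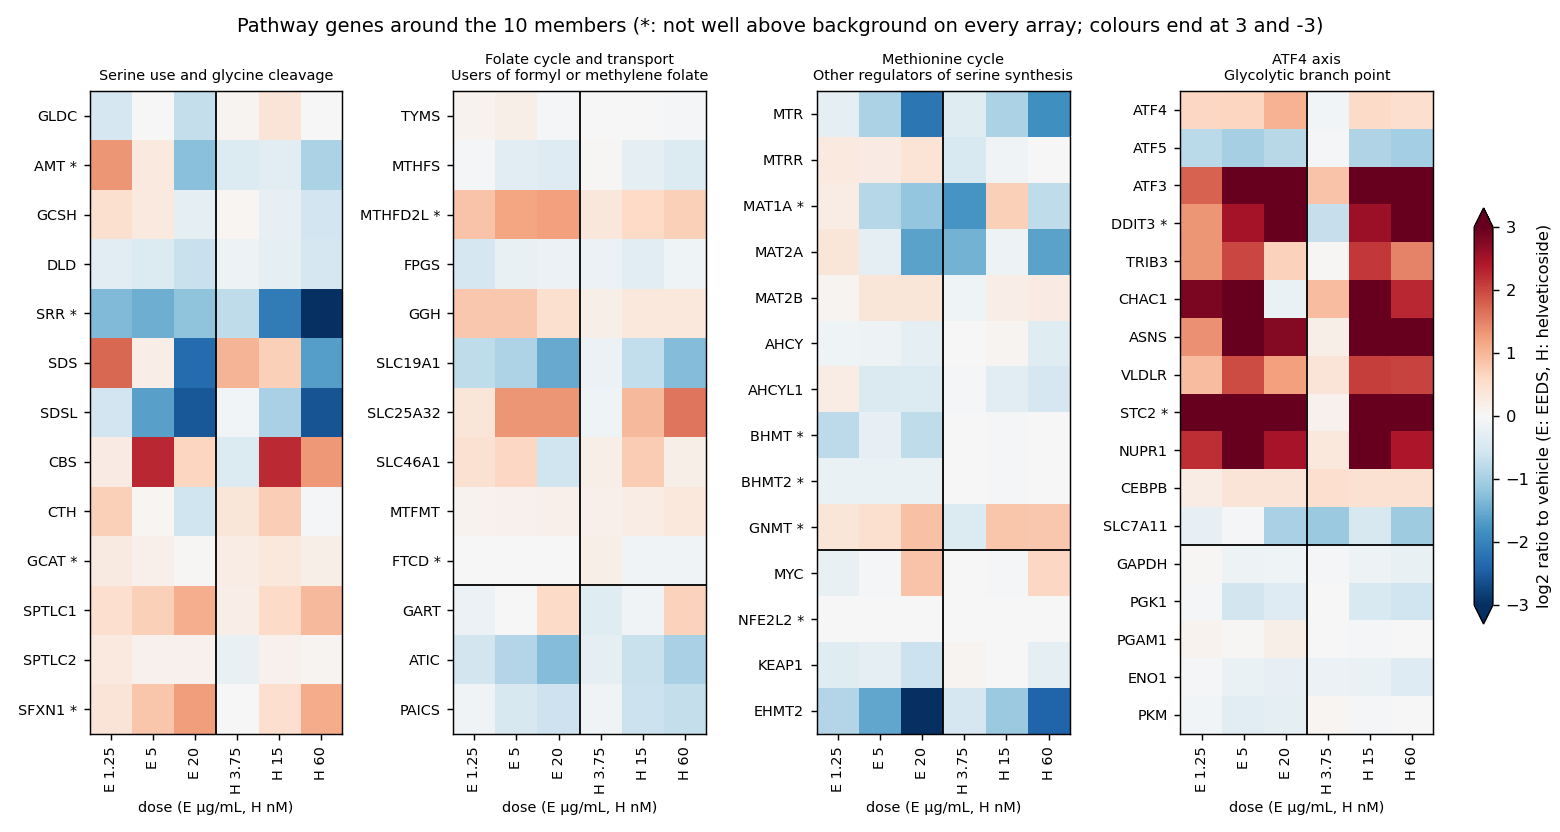
Log2 ratio to the vehicle (colour, ending at 3 and -3) of genes of the 7 pathway lists at the 3 doses of EEDS and of helveticoside, with 1 array per column and an asterisk where a gene was not well above background on every array. In the ATF4 list ASNS, VLDLR and NUPR1 are darkest at the middle dose or close to it, while MTR, SDSL and EHMT2 are bluest at the top dose.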

How the data were processed

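Expression was measured on 8 Agilent arrays of 1 colour covering the human genome, each with RNA pooled from 3 cultures of A549 cells. For every spot, the authors deposited scanner output: the intensity as a median signal, a local background and a background-subtracted processed signal, and calls for outliers, saturation and signal well above background. A further table from the authors, with 2427 blanks, holds linear intensity that was quantile-normalized within each series, as its values show, and served as an alternative. The files give no slide or scan, so only the series could be examined as a batch. The samples were grouped by agent and dose from the labels.

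Control and outlier spots of the deposited intensity were removed, which dropped 22 of 34127 probes, and the processed signal was averaged by probe. The 8 arrays were quantile-normalized together and log2-transformed. Of the probes, 24827 were matched to 19062 genes of GRCh38.p14 by accession, and the brightest probe stood for each of 4797 genes with more than 1. A gene was kept when its median signal was at least 1.4 times the local background on 1 array of each series, which left 19046 genes, and lower values were set to the higher of themselves and the lowest detected signal of the array. Precision is limited by having 8 arrays.

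Each series had its own intercept and slope per dose step in a limma 3.58.1 fit with trend and robust estimation (R 4.3.3, statmod 1.5.0), which left 4 residual degrees of freedom. The fit with the dose step as a shared factor was added after the data were seen. Adjusted p-values are Benjamini-Hochberg values over all genes with a threshold of 0.05. Both fits were also run on simulated data, in which 200 of 19046 genes were changed. The step fit called 2045 rising and 2170 falling genes at the middle step of the real data. The simulated noise was the residual spread of the straight-line fit, which counts a peak at the middle dose as noise. The shares recovered hold for these settings and are not recovery rates for the real data. The simulated EEDS trend recovered 57% of genes given a slope of 1 and 17% of those given the smaller slope. The simulated middle step recovered 26% of changes sized 2 and 4% of changes sized 1. Unchanged genes called numbered 2 for the trend and 0 for the step. A gene without a call is not shown to be unchanged. Other values came from Python 3.11.15, numpy 2.4.6 and pandas 2.3.3. Alternatives covered the signal, background correction, scaling, filter, probe choice, limma options, dose scale, vehicle and each array left out.

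The 10 genes and the pathway lists were chosen with earlier results of these data known. Named are the 10 genes, list members called in either trend or past 2-fold at a top dose while well above background on both arrays (up to 5 per list, by the size of the mean top-dose ratio), and the 3 genes most like the one with the largest mean rise and the one with the largest mean fall. List members named for a call at a shared step were chosen after their values were seen, and other exceptions are stated where they occur. Some genes of the lists are not reported here.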

Additional observations from a re-analysis of the deposited data

How the results depend on the processing

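No paired analysis was possible because each condition had 1 array, so no replicate numbers could pair arrays. The fit of shared dose steps has the series as a block, in which the agents, at doses that are not matched, stand in for replicates. Of the counts of the 10 genes, the EEDS trend gained 1 rising gene (MTHFD1L) with the signal as scanned, normexp, 75th percentile scaling, the authors' processed values, the well-above-background filter and the mean over probes well above background. With a dose-proportional predictor the EEDS trend had 1 falling gene (SHMT2, not SHMT1 and MTHFD1) and the helveticoside trend 0 rising and 0 falling, and with the arrays of 1 series only all trend counts were 0, as were those over all genes. 75th percentile scaling left 1 falling gene for helveticoside (SHMT1). At the top step 5 genes rose (PSAT1 and MTHFD2 added) with the signal as scanned, normexp, the well-above-background filter and the mean over probes well above background. From the middle to the top step 5 fell with the signal as scanned, normexp, 75th percentile scaling and the mean over probes well above background, and 6 with the filter, which also leaves out ALDH1L1. At the top dose of EEDS 1 gene was past 2-fold higher with the authors' values or either mean over probes, and at that of helveticoside 2 were higher and 2 lower against the vehicle of the other series. Under 75th percentile scaling the median over all genes was -0.20, -0.21 and -0.36 (log2 ratio) for the EEDS doses and 0.14, -0.12 and -0.18 for the helveticoside doses.

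With 1 array left out, the counts ranged from 0 to 2 for the EEDS fall, from 0 to 1 and 0 to 2 for the helveticoside rise and fall, from 0 to 6 and 0 to 2 for the middle-step rise and fall, from 0 to 5 and 2 to 4 for the top-step rise and fall, and were 0 for the fall from the middle to the top step. Values that had not been called and changed sign were the slope difference of PHGDH (-0.43 to 0.82), PSAT1 (-0.57 to 0.78), PSPH (-0.28 to 0.94), SHMT1 (-0.059 to 0.098), SHMT2 (-0.15 to 0.54), MTHFD2 (-0.41 to 0.66) and ALDH1L2 (-0.53 to 0.48). The EEDS slope changed sign for PSAT1 (-0.21 to 1.11), PSPH (-0.77 to 0.44) and MTHFD2 (-0.14 to 0.94), and the helveticoside slope for SHMT2 (-0.40 to 0.13). So did the middle step of SHMT2 (-0.087 to 0.29) and ALDH1L1 (-1.71 to 0.046), the top step of PSPH (-1.22 to 0.22) and ALDH1L1 (-0.54 to 0.32), and the middle-to-top change of MTHFD1L (-0.071 to 0.48) and ALDH1L1 (-0.16 to 1.61). Other reversals were the EEDS slope of PSAT1 with the dose-proportional predictor (-0.00454), the top step of ALDH1L1 with the signal as scanned (0.021) and normexp (0.050), and the slope difference of ALDH1L2 with quantile normalization within each series (-0.040) and the authors' values (-0.044). The cause was not tested for any of these.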
